A study of Mus musculus with 4 samples.

Results

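Macrophages of the fetal mouse liver were barcodes of the fetal libraries chosen by measured counts, namely those that held at least 1 UMI of at least 3 of 10 macrophage genes (C1qa, C1qb, C1qc, Clec4f, Vsig4, Cd5l, Timd4, Csf1r, Adgre1 and Marco, called the rule genes here). A UMI is a unique molecular identifier, so each count stands for 1 captured RNA molecule, and a barcode stands for 1 droplet. The rule found 480 of the 17239 fetal barcodes, out of 29335 in the whole series, and 472 of the 480 lay in the fetal IHG library. The series profiled dissociated livers of male mouse offspring whose mothers had hyperglycemia during pregnancy (IHG, intrauterine hyperglycemia) or were controls (Ctrl), with the inflammatory state of the offspring's liver as its stated subject. The groups were fetal IHG and fetal Ctrl livers at E18.5 (late gestation), delivered by caesarean section, and adult IHG and adult Ctrl livers at 8 weeks of age, perfused through the portal vein. Each group was 1 library, pooled from 3 pregnant mice or 3 adult individuals. All livers were digested with collagenases, DNase I and hyaluronidase and passed through red cell lysis. The mouse strain and the way hyperglycemia was induced were not given in the sources used here.

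Macrophages seed the fetal liver from the yolk sac and from fetal monocytes, and part of them persist as the Kupffer cells of the adult liver. In the fetal liver, which is the main blood-forming organ before birth, macrophages sit at the centre of erythroblastic islands, where they bind maturing erythroblasts through adhesion molecules, engulf the nuclei these cells expel, and recycle haem and iron. They also clear dying cells, take up bacteria and lipoproteins through scavenger receptors, and make the C1q complement protein.

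The rule genes that the description turns on have named places in the mouse genome (GENCODE M21 on mm10). C1qa (chr4:136895917-136898803), C1qc (chr4:136889804-136893065) and C1qb (chr4:136880129-136886187), which encode the 3 chains of C1q, lie side by side on the minus strand of chromosome 4. Marco (chr1:120474538-120505024, minus strand) encodes a scavenger receptor for bacteria and Vsig4 (chrX:96247203-96293438, minus strand) a receptor for complement C3 fragments. Cd5l (chr3:87357881-87371073, plus strand) encodes a secreted scavenger protein and Timd4 (chr11:46810800-46844332, plus strand) a receptor for phosphatidylserine on dying cells. The 250 bases before the RefSeq start of 4 of these genes, read 5′ to 3′ on the gene's strand from the RefSeq promoter table (GRCm38.p6), are shown because the genes mark the same cells. Capitals mark GAGGAA, a purine-rich core bound by ETS factors such as PU.1, or its reverse complement TTCCTC.
Marco, chr1:120505025-120505274: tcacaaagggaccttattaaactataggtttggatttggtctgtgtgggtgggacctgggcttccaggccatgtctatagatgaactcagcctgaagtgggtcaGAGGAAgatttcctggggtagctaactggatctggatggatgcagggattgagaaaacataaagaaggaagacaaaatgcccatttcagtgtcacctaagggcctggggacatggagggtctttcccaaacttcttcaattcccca
Cd5l, chr3:87357631-87357880: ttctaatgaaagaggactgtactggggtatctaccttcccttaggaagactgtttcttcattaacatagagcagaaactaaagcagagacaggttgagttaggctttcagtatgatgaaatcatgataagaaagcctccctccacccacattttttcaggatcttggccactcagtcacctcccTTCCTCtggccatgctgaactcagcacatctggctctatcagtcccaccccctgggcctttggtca
C1qb, chr4:136886201-136886450: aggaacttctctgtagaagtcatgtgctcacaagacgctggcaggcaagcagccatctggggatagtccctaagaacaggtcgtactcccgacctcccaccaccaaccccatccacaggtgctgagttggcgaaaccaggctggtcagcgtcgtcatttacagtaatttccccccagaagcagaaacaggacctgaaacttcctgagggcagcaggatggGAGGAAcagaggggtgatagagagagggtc
Vsig4, chrX:96293439-96293688: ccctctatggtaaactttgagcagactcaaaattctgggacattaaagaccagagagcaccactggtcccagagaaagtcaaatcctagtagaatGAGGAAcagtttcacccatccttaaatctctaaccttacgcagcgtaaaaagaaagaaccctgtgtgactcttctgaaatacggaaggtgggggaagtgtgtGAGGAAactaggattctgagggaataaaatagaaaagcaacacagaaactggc
The 6 letters were searched on both strands of this window in all genes of the table. They occurred in 5 of the 7 rule genes that the table holds (71.4%), in 6 of 15 matched genes (40.0%) among the 20 non-rule genes highest in the macrophages, and in 6252 of all 27025 genes (23.1%). A match describes the letters only, and the rule genes had been chosen for marking macrophages.

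The libraries differed in depth and content. The fetal IHG and fetal Ctrl libraries held 8739 and 8500 barcodes with medians of 9116 and 6645 UMIs per barcode, and the adult IHG and adult Ctrl libraries 6851 and 5245 barcodes with medians of 2235 and 2558 UMIs. About 8000 cells were loaded per channel, per the labels' protocols. Haemoglobin RNA took 20.4% of all UMIs of the fetal IHG library and 35.4% of those of the fetal Ctrl library. A total of 19 barcode sequences occurred in both fetal libraries, 3 of them as macrophages of the IHG library, and no barcode was a macrophage in both. Each group being a single library, no test between groups can be made, and a difference between conditions and one between captures or pools cannot be told apart. All intervals are exact 95% intervals (Clopper-Pearson for shares, conditional Poisson for ratios) that cover counting error only.

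Macrophage barcodes were common in the fetal IHG library and nearly missing from the others. They made up 472 of 8739 barcodes in fetal IHG, or 5.40% (4.94 to 5.90), and 8 of 8500 in fetal Ctrl, or 0.0941% (0.0406 to 0.185), a ratio of 57.4 (28.9 to 134). The same rule found 9 of 6851 barcodes in adult IHG, or 0.131% (0.0601 to 0.249), and 14 of 5245 in adult Ctrl, or 0.267% (0.146 to 0.447). The adult ratio of IHG over Ctrl was 0.492 (0.188 to 1.22), and its interval includes 1. With the rule-gene share of at least 0.3% described below, 4 adult IHG and 11 adult Ctrl barcodes were left, a ratio of 0.278 (0.0647 to 0.940). This interval lies below 1. With every barcode thinned to 1000 UMIs, 242 of 8040 IHG barcodes and 4 of 7948 Ctrl barcodes met the rule, with 699 and 552 shallower barcodes left out, and the fetal ratio was 59.8. Single UMIs of these genes outside the members were also more common in the fetal IHG library. At least 1 rule gene was found in 2342 of its 8267 other barcodes (28.3%; median depth 9288 UMIs), against 270 of 8492 in fetal Ctrl (3.18%; median 6654.5 UMIs). In B cells, which should lack the gene, C1qb was found in 5.70% of IHG barcodes (median depth 4601 UMIs) against 0.272% of Ctrl ones (median 3770 UMIs).

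**Figure D1:**
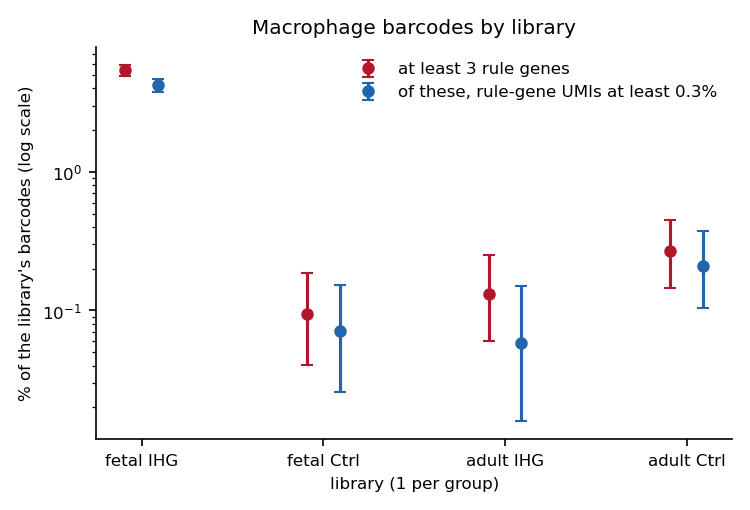
Share of each library's barcodes that met the macrophage rule (red), and share that also drew at least 0.3% of their UMIs from the rule genes (blue), on a log axis. Points are the 4 libraries, 1 per group, and bars are exact 95% binomial intervals. The fetal IHG library stands at 5.40% and 4.19%, and the other 3 libraries all lie below 0.5%.

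The rule took in barcodes of different kinds. The 84 fetal IHG barcodes with all 10 genes had medians of 286 rule-gene UMIs and 11921 UMIs in all, and the 90 just inside the rule, with 3 rule genes, medians of 4 and 9976 (a share of 0.0379%). The 410 barcodes just outside it, with 2 rule genes, had medians of 2 and 15831.5 (0.0143%). In the distribution of the rule-gene share, 66 of the 221 deep members (at least 5000 UMIs) lay under 0.05% and 103 at 1% or more, with 14 between 0.2% and 0.5%. A line at 0.3%, drawn after these shares had been seen, gave 366 rule-rich and 106 rule-poor members. Rule-rich barcodes were 4.19% of fetal IHG barcodes (3.78 to 4.63) and 0.0706% of fetal Ctrl barcodes (0.0259 to 0.154; 6 barcodes), a ratio of 59.3 (27.0 to 163). Such a line through a score marks a range, and counts below are given with and without the rule-poor barcodes where they differ.

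**Figure D2:**
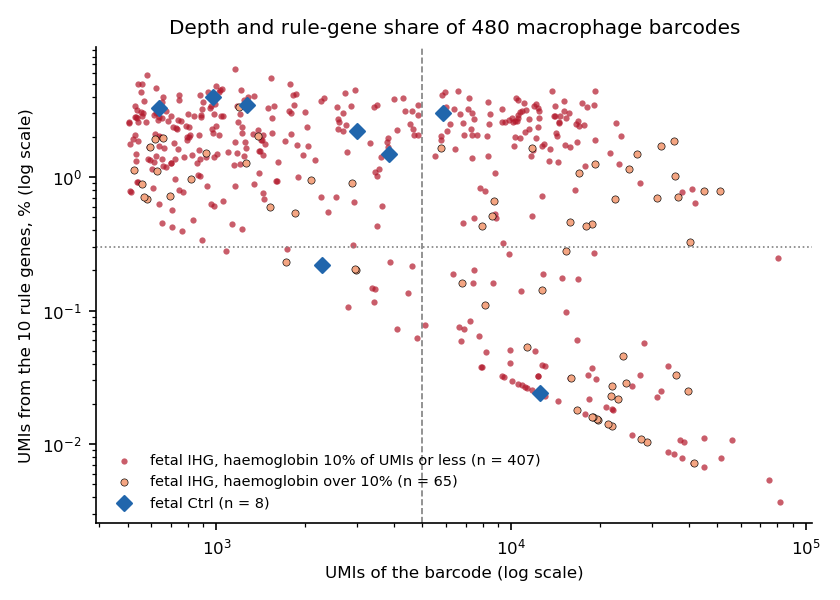
Total UMIs (x, log scale) against the percentage of UMIs from the 10 rule genes (y, log scale) for each of the 480 macrophage barcodes, with fetal IHG in red or, where haemoglobin RNA exceeded 10% of UMIs, in orange, and fetal Ctrl as blue diamonds. The dashed line is 5000 UMIs and the dotted line 0.3%. Below the dotted line lie 92 deep and 14 shallow IHG barcodes.

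Most rule-poor deep barcodes carried marker RNA of other cell types. Of these 92 barcodes, 89 exceeded the level set for at least 1 of 8 marker lists of other cell types (0.05% to 2% of UMIs, by list), led by erythroid cells (36), neutrophils (28), monocytes (25) and myeloid progenitors (14). Among the 129 rule-rich deep barcodes, 54 did, most for erythroid cells (27), monocytes (15) and neutrophils (10). The share of barcodes outside the rule past these levels is not given, so the counts compare these 2 classes only. Some listed markers were common in rule-rich deep macrophages, with Pf4 (megakaryocyte list) and Ms4a6c (monocyte list) each found in 94.6%. Neutrophil RNA was found in other classes too: S100a9, a neutrophil alarmin, had a UMI in 99.2% of rule-rich deep and 78.1% of rule-rich shallow macrophages, and in 96.3% of IHG B cells. In rule-rich members the median share of UMIs was 0.225% for the 7 neutrophil markers, 0.0238% for the 6 monocyte markers and 0.0705% for the 7 hepatocyte markers. The part of free RNA from other cells, and of droplets with more than 1 cell, in the results was not tested. A doublet caller marked 18 of the 472 members, 13 of them rule-rich.

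The 6 markers listed for the label are all rule genes, so that their levels in the members describe the choice and do not check the label. Thinned to 500 UMIs each, rule-rich deep and rule-rich shallow macrophages showed C1qa in 79.1% and 80.6%, C1qb in 79.8% and 89.9%, and Marco in 48.1% and 50.2%. Cd5l was found in 45.7% and 50.6%, Vsig4 in 22.5% and 23.6%, and Timd4 in 17.8% and 17.3%. At the same depth the rule-poor deep barcodes showed C1qa in 2.17% and C1qb in 4.35%, and IHG B cells 0.356% and 0.445%. Of genes the rule did not use, Fcna was found at this depth in 53.5% of deep and 54.0% of shallow rule-rich macrophages, and Hmox1 in 76.0% and 63.3%, against 4.35% of rule-poor deep barcodes and 1.07% of IHG B cells for Hmox1. Over all 472 members, before thinning, C1qb summed to 11418 UMIs (2705 CPM, the sum scaled to the class total) with a UMI in 91.5% of barcodes, Marco to 4380 (1038 CPM, 68.6%) and Timd4 to 736 (174 CPM, 45.8%). The B-cell shares at full depth were 5.70% for C1qb, 2.32% for Marco and 0.712% for Timd4, and the median depth was 3955 UMIs in the macrophages and 4601 UMIs in the B cells.

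Single rule-rich deep macrophages varied widely in these genes. The 10th percentile, median and 90th percentile were 1840, 5531 and 9626 CPM for C1qb, and 43.4, 1246 and 4799 CPM for Marco. Clec4f, a C-type lectin of Kupffer cells, had 19.1, 829 and 2527 CPM, while Vsig4 had 0, 255 and 1309 CPM. Every one of these spans includes counting error, since 1 UMI at the median depth of 11889 is a large part of a low value.

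Compared with the 8267 other barcodes of the fetal IHG library, the macrophages had a broad and large expression programme of their own. UMIs were summed over each class and scaled to the class total, and a gene was counted as higher or lower past 2-fold, among genes with at least 20 UMIs over both sums. Of 14272 genes, 3018 (21.1%) were at least 2-fold higher and 1100 (7.71%) at least 2-fold lower, with a median log2 ratio of 0.29. Of these calls, 73.3% were higher, and 54.8% with median-of-ratios scaling, which moves the median of all genes by -0.35. Without the rule-poor barcodes 3712 (26.1%) were higher and 2119 (14.9%) lower, with a median of 0.16. The list counts below are read against these shares and medians, and each list's median is on the same log2 scale. Rule genes were left out of every list count and list median. Single-gene values below cover all 472 members unless stated, and the 106 rule-poor barcodes hold 2017514 of their 4221179 UMIs. Ratios of single genes therefore depend on those barcodes. Without them Spic lay at 9.83, Fcna at 9.84, Hmox1 at 7.93 and Vcam1 at 7.78, all higher than the values below.

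Transcription factors of macrophages stood out, with 14 of 18 measured genes at least 2-fold higher, none lower and a median of 3.20. Spic, an ETS factor required for iron-recycling macrophages of the spleen, had 1214 UMIs in macrophages and 60 in all other barcodes, a log2 ratio of 8.91 (8.55 to 9.32). Maf, a bZIP factor of mature macrophages, had 879 against 1311 UMIs (4.01). Id3, a factor needed for Kupffer cell development in mice, had 2537 against 4541 UMIs (3.74, 3.67 to 3.81). Nr1h3, which encodes the oxysterol receptor LXR-alpha and is tied to Kupffer cell identity, had 322 against 34 (7.81). Spi1 (PU.1), the master factor of the myeloid lineage and shared with the many neutrophil precursors of this organ, lay at 0.68 (0.58 to 0.76). Of the list of CSF1 receptor signalling and myeloid adaptors, 6 of 13 genes were at least 2-fold higher (median 1.00), or 10 of 13 without the rule-poor barcodes (median 1.57), among them Lyn at 1.94 and Fcer1g at 1.63.

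Genes for the clearing of dying cells and for the island with erythroblasts were high. Of 18 measured phosphatidylserine receptors and engulfment genes, 11 were at least 2-fold higher and none lower, with a median of 2.43. The receptor kinases Axl and Mertk had 519 against 98 UMIs (6.98) and 344 against 91 UMIs (6.50). In the erythroblastic island list 10 of 14 genes were higher and none lower, median 2.54. Vcam1, the adhesion molecule that binds erythroblast integrins, had 2656 UMIs in macrophages and 540 in the other barcodes (6.88, 6.75 to 7.02), and Dnase2a, the lysosomal nuclease that digests engulfed nuclei, had 328 against 859 (3.20). Cd163, the receptor for haemoglobin bound to haptoglobin, was low but nearly all in macrophages, with 68 against 6 UMIs (7.98, 6.89 to 9.58).

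The iron and haem list had 12 of 19 genes at least 2-fold higher and none lower, with a median of 1.14. Hmox1 (chr8:75093621-75100589), the enzyme that opens the haem ring, had 9062 UMIs in macrophages and 1672 in the others (7.02, 6.95 to 7.10). It had a UMI in 74.4% of macrophages and 9.97% of other barcodes. Slc40a1, the iron exporter ferroportin, had 2575 against 1244 UMIs (5.63), and Ftl1, the ferritin light chain, 50272 against 256192 (2.23). Blvrb, biliverdin reductase B, which erythroid cells also make, lay at -0.02, and Tfrc, the transferrin receptor that erythroblasts carry in quantity, at -0.58 (367 against 13199 UMIs). The list therefore differed among its members, with Hmox1, Slc40a1 and Ftl1 high, and Blvrb and Tfrc not.

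Receptors for microbes, lectins and lipoproteins made up the lists with the largest medians. Of 15 scavenger and lectin receptors 13 were at least 2-fold higher (median 4.94), and of 19 Fc and Toll-like receptor genes 16 were (median 3.24), with none lower in either. Cd68, a lysosomal glycoprotein of macrophages, had 1025 against 801 UMIs (4.94), and Clec4n, the lectin dectin-2, lay at 5.68. Lysosomal genes followed, 27 of 30 higher with a median of 2.63, among them Ctsb (7747 against 15282 UMIs, 3.60) and Lgmn (2353 against 868, 6.02), the proteases cathepsin B and legumain. In the complement list 6 of 15 genes were higher and 1 lower (median 0.51), or 7 and 4 without the rule-poor barcodes (median 0.86): Cfp, which encodes properdin, had 1410 against 1439 UMIs (4.55), whereas Itgam, a subunit of complement receptor 3 that neutrophils also carry, had 89 against 5056 (-1.24).

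Lipid handling was also prominent, with 17 of 24 genes at least 2-fold higher, 1 lower and a median of 1.87. Apoe, the apolipoprotein that loads cholesterol onto lipoproteins, had 23033 UMIs in macrophages and 24750 in all other barcodes together (4.48, 4.45 to 4.51), with a UMI in 93.6% and 41.3% of barcodes. Pltp, the phospholipid transfer protein and a target of LXR, had 522 against 72 UMIs (7.43), and Abca1, the cholesterol exporter, 416 against 402 (4.63). Apoc1 lay at 3.96.

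The cytokine lists were high as well, although part of their genes belong to neutrophils. Of 20 chemokines 16 were at least 2-fold higher and 1 lower, with a median of 3.03, and of 22 cytokine genes 16 were higher and 1 lower, median 2.60. Ccl24, an eosinophil attractant, had 917 against 50 UMIs (8.77), Cxcl2, a neutrophil attractant, had 3972 against 10067 (3.24), and Ccl5, made mostly by lymphocytes, had 49 against 4294 (-1.86). Il1a had 1118 against 270 UMIs (6.63), Il18bp, which encodes a decoy that binds interleukin 18, 1062 against 212 (6.90), and Igf1, a growth factor, 587 against 98 (7.16). NF-kB targets, with 12 of 19 higher (median 1.25), and interferon response genes, with 22 of 24 higher (median 2.31, among them Ifit2 at 4.82 and Bst2 at 2.43), moved the same way, with none lower. Immediate-early genes were higher in 16 of 19 (median 2.01), among them Fos at 2.70.

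The MHC class II list was split. Of 10 measured genes 4 were at least 2-fold higher and 5 lower, with a median of -0.12 (-1.54 without the rule-poor barcodes, over 9 genes). Class II chains were among the 5 lower ones: Cd74, the invariant chain, had 97 UMIs in macrophages against 7283 in the others (-1.64), H2-Ab1 had 37 against 2744 (-1.61) and H2-Eb1 had 8 against 1377 (-2.76). Cd86, a costimulatory receptor on the same list, had 474 against 406 (4.81). Proliferation genes held 0 of 22 past 2-fold in either direction with all members (median -0.36). Without the rule-poor barcodes 17 of 22 were at least 2-fold lower (median -1.20), with Hmgb2 at -1.58 and Stmn1 at -1.52, against -0.57 and -0.53 with them.

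**Figure D3:**
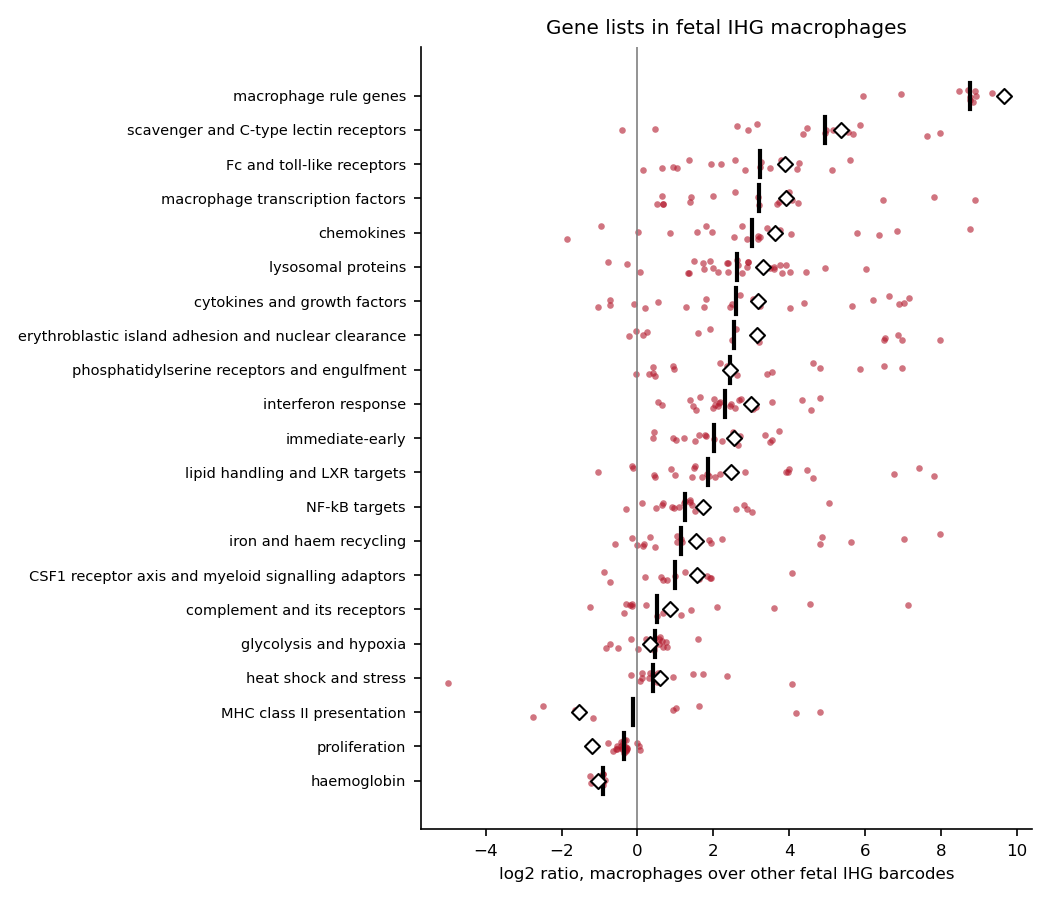
Log2 ratio of summed UMIs, macrophages over all other fetal IHG barcodes, for each measured gene (red points) of 21 gene lists, with the rule genes only in their own list. Black bars are list medians over all 472 members and white diamonds the medians over the 366 rule-rich members. After the rule genes themselves, scavenger and lectin receptors have the highest median (4.94), and the medians of the MHC class II, proliferation and haemoglobin lists lie below 0 by either measure.

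Among genes other than the rule genes with at least 100 UMIs in macrophages and a UMI in at least 20% of them, Fcna, Spic, Ccl24 and Folr2 had the highest ratios over all members. Without the rule-poor barcodes Lilra5 ranked first, at 9.95 (118 against 5 UMIs), followed by Fcna at 9.84. Fcna (chr2:25624666-25628030, minus strand), which encodes ficolin A, a lectin that starts complement activation, had 3942 UMIs in macrophages and 194 in the other barcodes (8.92, 8.72 to 9.14). It had a UMI in 68.0% of macrophages and 2.29% of the others. Folr2, the folate receptor beta, had 230 against 14 UMIs (8.57). Further genes among the 20 highest were Sdc3 (syndecan 3) at 6.99, the amino acid transporter Slc7a8 at 6.78, the organic anion exporter Abcc3 at 6.74, Pdlim4 at 6.60 and Sema6d at 6.48. At the other end, Col1a2, a collagen gene, had 0 UMIs against 425, at least 5.91-fold lower at a floor of 3 counts, and Mcpt8, a protease of basophils, 0 against 404, at least 5.62-fold lower.

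Deep and shallow macrophage barcodes differed in content as well as in depth. The 221 deep ones had a median of 12983 UMIs, 2944 genes and 3.14% mitochondrial UMIs, and the 251 shallow ones 1021 UMIs, 517 genes and 1.15%. In the fetal IHG library the rule picked 123 of 699 barcodes with 500 to 1000 UMIs (17.6%) and 71 of 375 with 1000 to 2000 (18.9%), against 57 of 1336 with 2000 to 5000 (4.27%) and 63 of 2277 with 5000 to 10000 (2.77%). Above this depth 103 of 2511 (4.10%) and 55 of 1541 (3.57%) were picked, the last with at least 20000 UMIs. Barcodes under 2000 UMIs were therefore macrophages more often than deeper ones. Of the shallow ones 237 of 251 were rule-rich, and of the deep ones 129 of 221. Part of this is set by depth, since a member has at least 3 rule genes and so at least 3 rule-gene UMIs. Members of up to 1000 UMIs therefore reach 0.3% in every case, and all 123 with 500 to 1000 UMIs were rule-rich. The line could leave out members with few rule-gene UMIs only among deeper barcodes, so rule-rich deep and shallow members were not chosen alike. The shallow rule-rich barcodes had a median of 20 rule-gene UMIs over 6 rule genes and a median share of 2.06%.

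Over all members, 1443 of 8999 genes (16.0%) were at least 2-fold higher and 569 (6.32%) at least 2-fold lower in deep barcodes, with a median of 0.08. The genes at the top belonged to other cell types. Ctsg, a granule protease of promyelocytes, had 267 UMIs in deep and 0 in shallow barcodes, at least 8.77-fold higher, and Gp5, a platelet glycoprotein, 125 against 0, at least 4.10-fold higher. Ppbp, another platelet gene, lay at 4.01 (3.00 to 5.57; 1061 against 6 UMIs) and Klf1, an erythroid factor, at 3.78 (2.23 to 7.15; 347 against 2 UMIs). Of the Ppbp UMIs, 1048 came from 3 rule-poor deep barcodes. Vpreb3, a gene of B-cell precursors, was among the lowest, with 146 UMIs in deep and 95 in shallow barcodes (-2.73).

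Among rule-rich members, inducible inflammatory genes were among those higher in deep barcodes. Of 7208 genes 1077 (14.9%) were at least 2-fold higher and 163 (2.26%) at least 2-fold lower in deep barcodes, with a median of 0.13. Of 17 NF-kB targets 11 were at least 2-fold higher, all 17 lay above 0 and the median was 1.23. Nfkbiz, an inducible regulator of NF-kB, had 813 UMIs in deep and 56 in shallow barcodes (1.36, 0.98 to 1.79), Cd83 lay at 1.23 (0.81 to 1.71) and Icam1, an adhesion molecule, at 1.74. Chemokines were higher in 6 of 17 (median 0.68), with Cxcl2 at 3577 against 263 UMIs (1.27, 1.10 to 1.46), Ccl4 at 2363 against 133 (1.66, 1.41 to 1.92) and Ccl3 at 617 against 38 (1.51, 1.06 to 2.04). Cxcl1 had 112 UMIs in deep barcodes and 1 in shallow ones (3.74, 1.81 to 9.63). Its UMIs lay in 20 of the 129 deep barcodes (15.5%), and 1 barcode held 34.8% of them. Of 16 cytokine genes 4 were higher (median 0.21), among them Tnf, with 310 against 10 UMIs (2.40, 1.57 to 3.54), and Il1b, with 1728 against 123 (1.32, 1.06 to 1.60).

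The same order held when depth was made equal. Thinned to 500 UMIs, Cxcl2 was found in 40.3% of deep and 24.5% of shallow rule-rich macrophages, Ccl4 in 31.8% and 13.9%, Il1b in 31.0% and 15.6%, and Nfkbiz in 15.5% and 8.02%. In IHG B cells Cxcl2 was found in 0.445% and Ccl4 in 1.78%. Without thinning the shares were 71.3% and 33.8% for Cxcl2 and 62.0% and 18.1% for Ccl4. These genes also varied among deep barcodes, with a 10th percentile, median and 90th percentile of 0, 886 and 5255 CPM for Cxcl2 and 0, 165 and 4565 CPM for Ccl4. The median number of genes at 500 UMIs was 340 in deep and 309 in shallow rule-rich barcodes.

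Other gene groups had fewer members past 2-fold. Lysosomal genes had 3 of 29 higher (median 0.07) and interferon genes 2 of 24 (median 0.12). In the iron list 3 of 17 were higher (median 0.31), while Hmox1 lay at -0.27 (-0.34 to -0.19) and the ferritin gene Ftl1 at -0.72. Vcam1 (0.52) and Spic (0.46) were slightly higher in deep barcodes. Of the rule genes, which chose both classes and so are a description only, C1qa lay at -0.27 and Clec4f at 0.19. Lars2, which encodes mitochondrial leucyl-tRNA synthetase, was lower, with 504 UMIs in deep and 417 in shallow barcodes (-2.22, -2.41 to -2.03). Summed RNA of other cells differed too: 6 of 6 neutrophil markers were at least 2-fold higher in deep barcodes (median 1.63) and 4 of 5 B-cell markers at least 2-fold lower (median -1.98). Their summed share of all UMIs was 1.43% in deep and 0.471% in shallow barcodes for neutrophil markers, and 0.0145% and 0.0423% for B-cell markers. The neutrophil sum rests on few barcodes: the median barcode had 0.193% in the deep and 0.290% in the shallow class, 10 of 129 and 17 of 237 exceeded 1%, and the highest reached 34.7% and 14.2%. The part of these markers in the result was not tested.

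**Figure D4:**
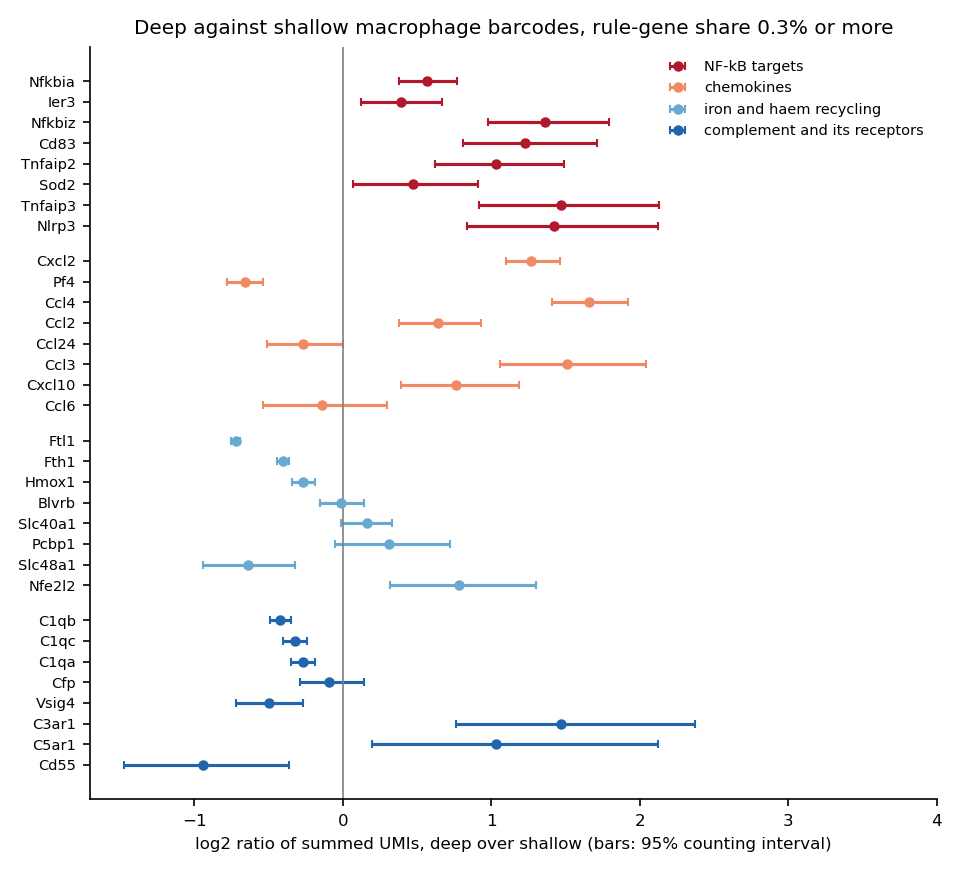
Log2 ratio of summed UMIs, deep (at least 5000 UMIs, n = 129) over shallow (n = 237) rule-rich fetal IHG macrophages, for the up to 8 genes with most UMIs of 4 lists. Points are ratios and bars exact 95% Poisson intervals. All 8 NF-kB targets shown lie above 0, while the iron genes Ftl1, Fth1 and Hmox1 lie below it. C1qa, C1qb and C1qc also lie below 0, but they are rule genes that chose both classes, so their values are a description only.

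Some deep macrophages held much haemoglobin RNA. Among the 129 rule-rich deep barcodes 21 drew over 10% of their UMIs from haemoglobin genes, with a median of 47.0%, against 0.841% in the other 108. Such barcodes were not particular to macrophages, since 2062 of the 6108 deep barcodes outside the rule also exceeded 10%. The 21 were also deeper (median 22560 against 11198.5 UMIs) and had a smaller rule-gene share (0.784% against 2.50%). Of 6785 genes 366 (5.39%) were at least 2-fold higher and 2703 (39.8%) at least 2-fold lower in the 21, with a median of -0.80. All 7 erythroid markers were higher (median 3.72), among them Alas2, the first enzyme of haem synthesis in erythroid cells (329 against 33 UMIs; 4.70, 4.20 to 5.28). Proliferation genes were higher in 15 of 22 (median 1.40), and Mki67 and Top2a were both found in 13 of 21 barcodes (61.9%) against 8 of 108 (7.41%). Among the deep barcodes outside the rule, 2775 of 6108 held both (45.4%). A macrophage with an erythroblast inside or attached to it and a droplet with separate cells cannot be told apart in these data.

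In an alternative chosen after seeing the data, the contrast of deep and shallow rule-rich macrophages was computed without the barcodes over 10% haemoglobin on either side, which left 108 deep and 219 shallow ones. Of 6591 genes 1151 (17.5%) were then at least 2-fold higher and 98 (1.49%) at least 2-fold lower, with a median of 0.24. NF-kB targets had 11 of 16 higher (median 1.70, or 1.52 with genes at 0 at their bound), chemokines 7 of 17 (median 0.99) and immediate-early genes 8 of 19 (median 0.93), against 5 of 19 with these barcodes (median 0.75). Proliferation genes had 2 of 22 higher (median 0.19), against 7 of 22 with these barcodes (median 0.55).

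Monocytes were chosen as the related class of the library, without a measure of likeness. They were the 510 fetal IHG barcodes outside the rule with at least 3 of Ly6c2, Ccr2, F13a1, Fn1, Ms4a6c and Ms4a4c (median 12640.5 UMIs). Of 10790 genes 1615 (15.0%) were at least 2-fold higher and 905 (8.39%) at least 2-fold lower in macrophages, with a median of -0.12. The iron and haem list had 14 of 19 higher and none lower (median 1.90), with Hmox1 at 9062 against 268 UMIs (5.88, 5.71 to 6.06) and Slc40a1 at 2575 against 25 (7.46, 6.92 to 8.12). Phosphatidylserine receptors and engulfment genes had 12 of 18 higher and none lower (median 2.39), with Mertk at 344 against 2 UMIs (7.91, 6.36 to 11.28). Spic had 1214 against 2 UMIs (9.73, 8.19 to 13.10), Fcna 3942 against 16 (8.70, 8.05 to 9.56) and Igf1 587 against 3 (8.19, 6.86 to 10.70). Nr1h3, with 322 UMIs in macrophages and 0 in monocytes, was at least 187-fold higher, and C6, a component of the complement membrane attack complex, with 138 against 0, at least 80.2-fold higher.

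Other groups were shared by both classes or higher in the monocyte class, which also held other myeloid RNA. In it, 5 myeloid progenitor markers took 0.804% of UMIs, 7 neutrophil markers 2.93% and the 6 monocyte markers 0.248%, against 0.0983%, 2.18% and 0.0573% in macrophages, and 122 of its 510 barcodes drew over 1% from the progenitor markers. Spi1 lay at -0.47 and Lyz2, which encodes lysozyme, at -1.50. MHC class II genes were at least 2-fold lower in 7 of 9 (median -2.26), with H2-Eb1 at 8 against 384 UMIs (-4.70) and H2-Aa at 19 against 723 (-4.41). Elane, the neutrophil elastase that early myeloid precursors make, had 1072 against 17861 UMIs (-3.26), Vcan, a matrix proteoglycan, 34 against 652 (-3.44), and Prss34, a mast cell and basophil protease, 4 against 387 (-5.63). Without the rule-poor barcodes the differences were wider, with 1705 of 10357 genes (16.5%) higher and 1784 (17.2%) lower. Proliferation genes were then at least 2-fold lower in 16 of 22 (median -1.30), against 1 of 22 with all members (median -0.48), and lysosomal genes higher in 21 of 29 (median 1.50), against 13 of 29 (median 0.78). The monocyte class held many cycling barcodes, with both Mki67 and Top2a in 277 of 510 (54.3%), against 21 of 129 rule-rich deep macrophages (16.3%).

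The 8 fetal Ctrl macrophages were few and unlike one another. Their depths ran from 640 to 12471 UMIs, with a median of 2633.5. The deepest had 3 rule genes, 3 rule-gene UMIs and no Apoe, and held all 106 H2-Aa UMIs, all 91 H2-Ab1 UMIs, 215 of 218 Cd74 UMIs and 442 of 485 Cst3 UMIs of the group. The other 7 ran from 4 to 9 rule genes and from 0.22% to 4.02% rule-gene UMIs. The barcodes of 3840 and 2273 UMIs carried the B-cell genes Ebf1, with 12 and 13 UMIs, and Vpreb3, with 16 and 7 UMIs. Sums over these 8 therefore rest on single barcodes.

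Set against them, 882 of 9017 genes (9.78%) were at least 2-fold higher and 3216 (35.7%) at least 2-fold lower in IHG macrophages, with a median of -0.58. Of these calls 21.5% were higher, and 57.2% with median-of-ratios scaling, which moves the median by 0.64. The interval excluded 0 for only 143 of the higher genes (1.59% of those tested) and 338 of the lower ones (3.75%). Of the rule genes, C1qa lay at -0.59 (-0.87 to -0.27) and Marco at 1.58 (0.77 to 2.72; 4380 against 10 UMIs). Hmox1 had 9062 against 20 UMIs (1.67, 1.08 to 2.42), Slc40a1 2575 against 7 (1.30, 0.36 to 2.72) and Spic 1214 against 1 (2.54, 0.64 to 8.43). Apoe, with 23033 against 451 UMIs, lay at -1.45 (-1.58 to -1.31), and at 0.17 where 2 rule genes sufficed. MHC class II genes were at least 2-fold lower in 8 of 8 (median -7.29), with H2-Aa at -9.57 and Cd74 at -8.28, which rests on the deepest Ctrl barcode. Without the rule-poor barcodes, that one included, Cst3 lay at -0.80 (-1.23 to -0.30), against -3.95 with them, and Cd74 at -3.18 (-4.60 to -0.65). Neutrophil and hepatocyte genes were among the highest: Lcn2 had 3964 against 0 UMIs (at least 9.50-fold higher), Ngp 9376 against 2 (4.75, 3.22 to 8.12) and Afp, made by fetal hepatocytes, 1616 against 0 (at least 3.87-fold higher). Neutrophil markers were higher in 6 of 7 genes (median 3.33) and hepatocyte markers in 7 of 7 (median 3.71, or 1.95 with genes at 0 at their bound). These sums rest on few barcodes. Neutrophil markers took 2.18% of all UMIs in IHG and 0.165% in Ctrl macrophages, but 0.217% and 0.163% in the median barcode, with a highest value of 37.3% in IHG. Hepatocyte markers took 0.232% and 0.00659% of all UMIs, with a median of 0.0445% and a highest value of 20.9% in IHG barcodes. In B cells of the same 2 libraries, Lcn2 stood at 531 CPM in IHG and 512 CPM in Ctrl (0.05, 0.00 to 0.10), Afp at 165 and 43.3 CPM (1.93, 1.80 to 2.06) and Hmox1 at 15.1 and 1.84 CPM (3.02, 2.48 to 3.63). The part of free RNA in the result was not tested.

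Proliferation and immediate-early genes differed between the libraries over all members, but not in the same way without the rule-poor barcodes, an alternative chosen after seeing the values over all members. Over all members, proliferation genes were at least 2-fold higher in 16 of 22 (median 1.55, or 0.64 with genes at 0 at their bound), and immediate-early genes were at least 2-fold lower in 12 of 19 and higher in 1 (median -1.32). Between the 366 rule-rich IHG and 6 rule-rich Ctrl macrophages, 460 of 7232 genes (6.36%) were at least 2-fold higher and 3075 (42.5%) at least 2-fold lower, with a median of -0.80. Proliferation genes then had 5 of 22 higher and 3 lower, and their median of 0.47 became -1.44 with genes at 0 at their bound. Immediate-early genes had 2 of 19 higher and 4 lower, with a median of 0.26, or -0.33 with bounds. In B cells of the same libraries the immediate-early median was -0.86, against 0.27 over all genes.

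Adult barcodes that met the rule lacked most of the genes that marked the fetal macrophages. Clec4f, Vsig4, Cd5l, Timd4, Marco, Fcna and Spic all had 0 UMIs in the 9 adult IHG and in the 14 adult Ctrl barcodes, where a count of 0 allows up to 91.4 and 41.9 CPM. C1qa, C1qb and C1qc had 23, 32 and 6 UMIs in adult IHG, and 117, 186 and 108 in adult Ctrl. Marco was at least 11.4-fold higher in fetal IHG macrophages than in adult IHG ones, Cd5l at least 9.16-fold and Fcna at least 10.2-fold. Marco and Cd5l are rule genes that helped to choose the barcodes, so their folds are a description only. Against adult Ctrl the bounds for Marco and Fcna were 24.8-fold and 22.3-fold. Adult barcodes that met the rule therefore did not show the Kupffer cell markers, and only the C1q genes, Csf1r and Adgre1 brought them in.

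Against the 9 adult IHG barcodes, 1349 of 9032 genes (14.9%) were at least 2-fold higher and 2936 (32.5%) at least 2-fold lower in fetal IHG macrophages, with a median of -0.43. Of these calls 31.5% were higher, and 68.9% with median-of-ratios scaling, which moves the median by 0.69. Against the 14 adult Ctrl barcodes the median was 0.05. MHC class II was the clearest group, at least 2-fold lower in 7 of 8 genes against adult IHG (median -7.32). Cd74 had 97 UMIs in the 472 fetal IHG macrophages and 524 in the 9 adult IHG barcodes (-9.43), H2-Aa 19 against 209 (-10.43) and H2-Eb1 8 against 212 (-11.65). H2-Aa had a UMI in 1.27% of fetal IHG macrophages, against 77.8% of adult IHG and 100% of adult Ctrl barcodes. Proliferation genes were higher in 19 of 22 (median 2.39, or 0.15 with genes at 0 at their bound), and NF-kB targets at least 2-fold lower in 14 of 18 (median -1.71). These list values cover all 472 fetal members, rule-poor barcodes included, and were not computed without them. In the other contrasts proliferation counts changed without those barcodes. With rule-rich members only, against 4 adult IHG barcodes, 296 genes were higher and 5053 lower, with a median of -1.78. Hspa1a, a heat shock gene that cell dissociation also raises, had 464 against 92 UMIs (-4.68), and heat shock genes were lower in 10 of 14 (median -1.58). Hmox1 lay at 2.62 against adult IHG (-0.32 where 2 rule genes sufficed) and at 2.24 against adult Ctrl, whereas Apoe lay at 0.70 and -2.01. Adult libraries held almost no haemoglobin RNA, and S100a9, with 38948 UMIs in fetal macrophages and 0 in adult IHG ones, was at least 101-fold higher, so that RNA of other blood cells differed between the ages too. Its part in the result was not tested.

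**Figure D5:**
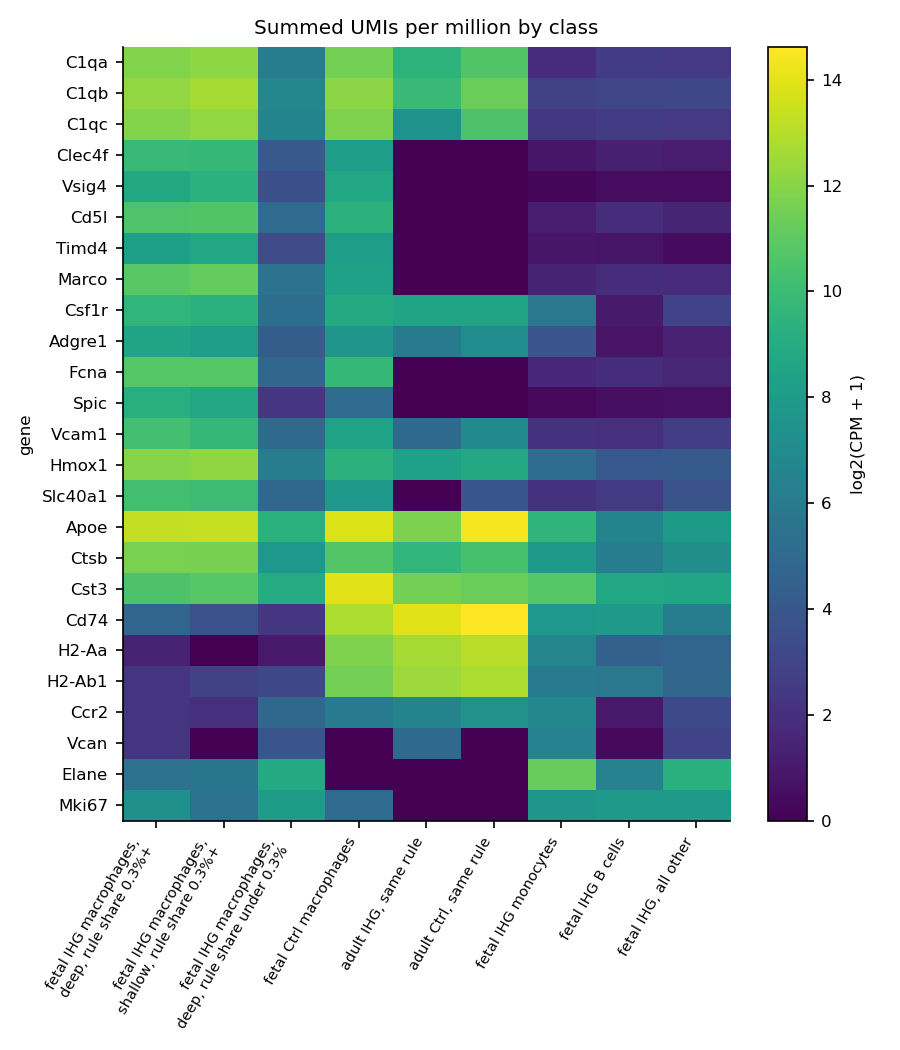
Level of 25 genes, as log2(CPM + 1) of UMIs summed per class, in macrophage barcodes of the fetal IHG library (3 left columns), fetal Ctrl and adult libraries, and in monocytes, B cells and all other barcodes of the fetal IHG library. Fcna, Spic and Hmox1 are high in both the deep and the shallow rule-rich macrophages. Adult barcodes are at 0 for Clec4f, Vsig4, Cd5l, Timd4, Marco, Fcna and Spic and high in Cd74, H2-Aa and H2-Ab1.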

How the data were processed

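The data are 3′ single-cell RNA counts of 4 liver libraries. The authors deposited raw UMI counts for 32285 genes, not normalized, and the file headers name Cell Ranger 5.0.0. The submitters' processing notes name the build mm10 and Seurat without assigning steps. Groups follow the labels, with 1 library each.

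All deposited barcodes were used with no filter on cells and no removal of doublets (Scrublet and filters at 300 genes and 25% mitochondrial UMIs were alternatives). UMIs were summed per class, scaled to counts per class total (CPM), and compared as log2 ratios with 0.5 added to each count, for genes with at least 20 UMIs over both sums and a 2-fold rule for calls. With 0 UMIs in a class, folds are bounds at a floor of 3 counts over the class. The ratio and interval steps were tested on simulated Poisson sums per class. No barcodes were simulated, so neither the choice of classes nor the spread among barcodes was tested. Of the list genes, Clec7a, Mx1, Ahsp, Ddit3 and Aldoa could not be matched to 1 row. No per-sample test or p-value is given.

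The rule for named genes allows the rule genes, per list the 6 members with most UMIs and those with the extreme ratios, the 20 highest genes over other barcodes (at least 100 UMIs, found in 20% of macrophages), the 10 highest and 10 lowest of the other contrasts, and markers of other cell types. Which of these serve as examples was picked after their values were seen, and a gene outside this rule was likewise chosen after its values were seen. Members and lists were chosen with earlier results of these data known, and the 0.3% rule-gene share after seeing the shares. B cells, set beside the macrophages for comparison, were barcodes outside the rule chosen by B-cell markers. Tools were scanpy 1.11.5, matplotlib 3.10.9, pandas 2.3.3, scipy 1.17.1 and numpy 2.4.6 under Python 3.11.15.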

Additional observations from a re-analysis of the deposited data

Results flagged for a closer look

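The ratio of macrophage shares, IHG over Ctrl, had opposite signs on the log2 scale at the 2 ages, but the adult interval includes 0 under the rule of at least 3 genes. It was 5.84 (4.85 to 7.06) on the log2 scale in the fetal libraries, from 472 of 8739 barcodes in fetal IHG and 8 of 8500 in fetal Ctrl. It was -1.02 (-2.41 to 0.29) in the adult libraries, from 9 of 6851 barcodes in adult IHG and 14 of 5245 in adult Ctrl. With a rule-gene share of at least 0.3% the adult value was -1.845 (-3.951 to -0.090). That interval lies below 0 but rests on 4 adult IHG and 11 adult Ctrl barcodes and covers counting error only. The adult barcodes held no UMI of Clec4f, Vsig4, Cd5l, Timd4 or Marco, so the shares at the 2 ages are not of like barcodes. The difference between the ages was not tested, since each group is 1 library.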

How the results depend on the processing

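The ratio of macrophage shares, IHG over Ctrl, was 5.84 on the log2 scale and lay between 5.53 and 6.03 under every alternative but one, since asking for only 2 rule genes gave 4.42. Counts of genes past 2-fold moved more, and they are given as higher and lower. Asking for 2 rule genes gave 2240 and 622 for macrophages over other barcodes, 1911 and 1659 for deep over shallow, 1711 and 1625 for IHG over Ctrl, and 2888 and 2231 for fetal over adult IHG. Asking for 4 gave 1204 and 359 for deep over shallow, 528 and 3714 for IHG over Ctrl, and 33 and 7850 for fetal over adult, where it left 1 adult IHG barcode of 517 UMIs. Asking for 5 gave 1180 and 298, and 484 and 3565, and 1634 and 1455 over monocytes, and left no adult IHG barcode. With a minimum of 1 UMI over both sums the counts were 7556 and 1100 over other barcodes, 1929 and 3976 for deep over shallow, 882 and 9128 for IHG over Ctrl, 3854 and 1720 over monocytes, and 1349 and 8857 for fetal over adult. With a minimum of 100 UMIs they were 2142 and 540, 535 and 152, 882 and 751, 769 and 531, and 1349 and 701. Median-of-ratios scaling gave 2073 and 1707 over other barcodes, 1945 and 1455 for IHG over Ctrl, and 2657 and 1199 for fetal over adult. Deep over shallow gave 1658 and 320 without barcodes over 10% haemoglobin, and 136 and 89 with barcodes thinned to 500 UMIs, where fewer genes reach the minimum.

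Alternatives added after seeing the data concern the rule-gene share. At 0.3% the counts were 3712 and 2119 over other barcodes (3903 and 1947 deep against deep, 1868 and 2264 shallow against shallow), 1077 and 163 for deep over shallow (1151 and 98 at 10% haemoglobin or less), 460 and 3075 for IHG over Ctrl, 1705 and 1784 over monocytes, and 296 and 5053 for fetal over adult. At 0.2% they were 3593 and 1978, and 1050 and 188, and at 0.5% 3868 and 2202, and 1113 and 147. Adult Ctrl in place of adult IHG gave 1962 and 1812.

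Some genes changed sign. Ppbp in deep over shallow went to -1.43, -1.45 and -2.68 at shares of 0.3%, 0.2% and 0.5%, and to -1.05 at 0.3% with 10% haemoglobin or less, which leaves out the 3 barcodes that hold most of it. In IHG over Ctrl, Apoe was 0.17 with 2 rule genes. In fetal over adult IHG, Hmox1 was -0.32 with 2 rule genes, Slc40a1 -0.16 and C1qb -0.82 with 4, set against that 1 adult barcode, and Lyz2 0.81 at a share of 0.3%, where 4 adult IHG barcodes are left, and the cause was not tested. A gene counted as reversed only if it was at least 2-fold in the main setting, so smaller values could not count. No such named gene was reversed in macrophages over other barcodes or over monocytes under the alternatives run. That concerns the sign only, and sizes were less stable. For macrophages over other barcodes, 627 values under the alternatives were counted as moved and 445 as the same. Over monocytes 86 had moved and 238 were the same, and for deep over shallow 223 and 327. For IHG over Ctrl the counts were 53 and 174, and for fetal over adult 40 and 136. Scrublet marked 256 of 8739 fetal IHG barcodes (2.93%) but 1 of 8500 in fetal Ctrl, 5 in adult IHG and 1 in adult Ctrl, so it did not work there and those libraries were kept whole.

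No paired analysis was possible because each group is 1 library. No replicate was left out for the same reason. The 8 Ctrl and 9 and 14 adult barcodes limit every ratio set against them.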
